A study of Sus scrofa with 8 samples.

Results

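The genes of the mitochondrial respiratory chain and ATP synthase were followed in porcine synovial mesenchymal stem cells (SMSCs). They were taken by gene symbol from the annotation of the array, as the nuclear-encoded subunits of NADH dehydrogenase (symbols that start with NDUFA, NDUFB, NDUFC, NDUFS or NDUFV), succinate dehydrogenase (SDHA to SDHD), the cytochrome bc1 complex (UQCR, CYC1), cytochrome c oxidase (COX4 to COX8) and ATP synthase (ATP5), together with cytochrome c (CYCS). The rule found 60 genes with 95 probe sets, of 13538 named genes and 47722 probe sets tested. By complex these were 25 genes of complex I, 4 complex I assembly factors (NDUFAF1 to NDUFAF4, which share the symbol stem), 3 of complex II, 2 of complex III, CYCS, 9 of complex IV, 14 of ATP synthase, and ATP5S and ATP5SL, a pair of genes named after ATP synthase. The mitochondrially encoded subunits, and SDHC, CYC1, COX4 and COX8, were not analysed here.

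SMSCs are fibroblast-like cells that grow out of the lining of a joint and can form fat, bone and cartilage cells. They came from the stifle joints of male piglets, 59 days old, of 2 breeds, German Landrace (DL) and Angeln Saddleback (AS), with 3 animals per breed, and from 2 tissues. FP stands for adipose synovium, taken from the fat pad below the kneecap, and FS for fibrous synovium, taken from the joint capsule. RNA of undifferentiated cell pools at passage 3 was measured on the Porcine Snowball Array. Each breed and tissue (DL-FP, DL-FS and AS-FP, AS-FS) had 2 arrays, numbered replicate 1 and 2. All groups were untreated and kept in growth medium, and because cells were pooled the arrays do not give the spread between animals. Whether the 2 arrays of a group came from separate cultures is not given in the sources used here, and a p-value here covers just the variation among arrays, which could be technical.

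The respiratory chain sits in the inner membrane of the mitochondrion. Complex I takes electrons from NADH and complex II takes them from succinate. Ubiquinone carries the electrons to complex III, and cytochrome c carries them on to complex IV, which passes them to oxygen. Complexes I, III and IV pump protons as they do so, and ATP synthase uses the return of the protons to make ATP. Cultured stem cells that have not begun to differentiate are known for a large share of glycolysis in their energy supply, and the subunits of the chain are known to rise together when such cells form fat or bone cells.

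Values are log2 RMA signals, so that a difference of 1 is a doubling, and each gene is represented by its brightest probe set unless another is named. The medians of 69 background probe sets were 2.66 to 2.81 on the 8 arrays, and the medians of all probe sets were 4.58 to 4.64. Of the 10 markers listed for mesenchymal stem cells and fibroblasts, 9 were measured and all 9 lay above background, among them THY1 (CD90) with a mean of 10.98, ITGB1 (CD29) with 11.39, ENG (CD105) with 9.20 and CD44 with 9.06. The leukocyte marker PTPRC (CD45) was below it at 2.08, but 5 of the 6 macrophage and leukocyte markers measured lay above background. In the respiratory chain, 59 of 60 genes and 89 of 95 probe sets had a mean above background. ATP5H, subunit d of ATP synthase, was below it with a mean of 1.85, and its differences carry no information. NDUFA4, now counted with complex IV, was barely above it at 2.83. Levels of different probe sets were not set against each other.

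The SD of a respiratory chain gene over the 8 arrays was 0.05 to 0.40, and its median of 0.18 equalled that of all named genes, 0.18. Among genes above background it was smallest for NDUFA3 (0.05), ATP5J (0.06), SDHB (0.06), NDUFAF1 (0.07) and NDUFS7 (0.08), and largest for NDUFA4 (0.40), NDUFV3 (0.31), ATP5G1 (0.29), NDUFB2 (0.29) and NDUFA4L2 (0.28). Summed over the 60 genes, what variation there was followed the replicate number more than breed or tissue. The replicate number took up 51.5% of the summed squares of the 60 genes around their means, breed 13.6% and tissue 6.3%, whereas over all named genes the shares were 22.2%, 22.7% and 16.2%. In the heat map by array this is a band of higher values on the arrays numbered 1 and lower values on the arrays numbered 2. It did not hold for every class. Breed took more than the number in the assembly factors (40.8% against 24.4%), complex II (29.3% against 19.5%) and CYCS (23.7% against 7.37%). These classes hold 4, 3 and 1 genes, and none of these genes was called between breeds. For CYCS the difference of the tissue effect between the breeds took 25.2%, more than breed.

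**Figure D1:**
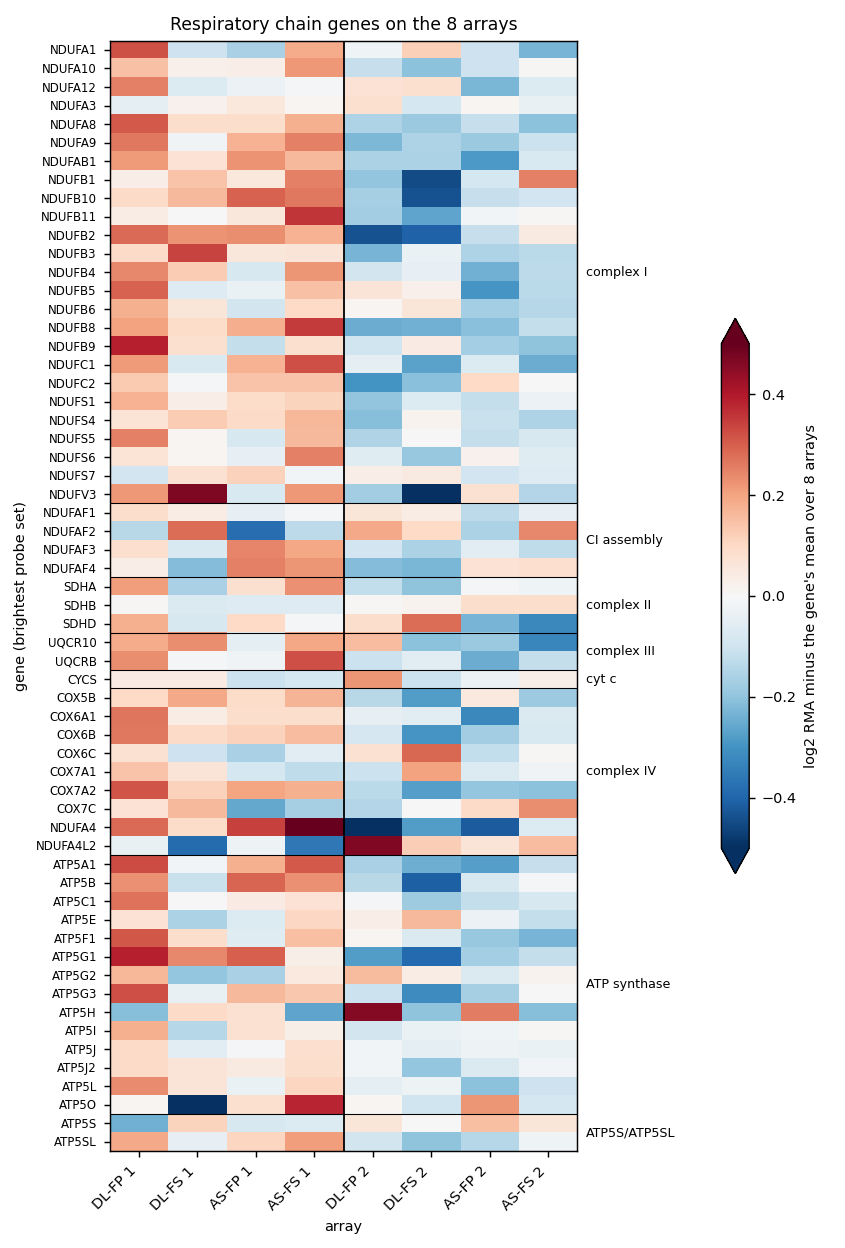
Log2 RMA of each of the 60 genes minus its mean over the 8 arrays (colour, cut at -0.5 and 0.5), with arrays numbered 1 on the left, arrays numbered 2 on the right and genes ordered by complex. Most complex I rows are red on the left and blue on the right, and no block of rows separates DL from AS or FP from FS.

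The first comparison asked whether the breeds differ in the chain. No respiratory chain gene was called between AS and DL. Of the 95 probe sets 0 passed limma's adjusted p of 0.1, against 0.666% of all probe sets, and 4 were under an unadjusted p of 0.05. A plain linear model also called 0, but its share over all probe sets is not given here, so that 0 adds no support. The median difference over the 60 genes was 0.01 (AS minus DL), with a range from -0.23 to 0.32, and the median over all named genes was 0.00. Among the 59 genes above background the 95% interval of the difference lay within 1 of 0 for 59 and within 0.5 for 48, and the outermost bounds were -0.53 and 0.83. Taken gene by gene, the intervals of the measured signal thus stayed inside a doubling, with a median standard error of 0.12. They cover the variation among arrays only, not that among animals. The bound of 0.83 is that of NDUFA4, whose signal near background limits what its interval can show.

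In complex I, NDUFB1, an accessory subunit of the membrane arm, had the largest difference, 0.23 (standard error 0.13, adjusted p = 0.706). It stood at 9.17 and 8.94 in DL-FP, 9.28 and 8.69 in DL-FS, 9.19 and 9.05 in AS-FP and 9.39 and 9.39 in AS-FS (arrays numbered 1 and 2). The breeds overlapped, and DL-FS 2 was the lowest array.

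Among the assembly factors, NDUFAF4, which helps to build the early parts of complex I, had the largest difference of all 60 genes. It stood at 5.12 and 4.87 in DL-FP, 4.87 and 4.86 in DL-FS, 5.34 and 5.16 in AS-FP and 5.31 and 5.17 in AS-FS. All 4 AS arrays lay above all 4 DL arrays, by 0.32 on average (standard error 0.12, adjusted p = 0.481). The second NDUFAF4 probe set lay below background. NDUFAF1, which acts in an intermediate of complex I assembly, separated the breeds the other way, with DL arrays at 7.69 to 7.74 and AS arrays at 7.52 to 7.64, a difference of -0.11. These were the 2 genes of 60 whose breeds did not overlap, 3.33% against 6.85% of all named genes.

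In complexes II, III and IV no difference was called either. SDHD, a membrane anchor of succinate dehydrogenase, differed by -0.23 (standard error 0.13, adjusted p = 0.688), of which 0.00 came from the arrays numbered 1 and -0.46 from those numbered 2. SDHA, the flavoprotein that oxidises succinate, differed by 0.14 and SDHB, the iron-sulphur subunit, by 0.02. UQCR10, a small subunit of complex III, differed by -0.18 and CYCS by -0.10. In complex IV the largest difference was that of NDUFA4, 0.23 (standard error 0.26), near background. Both members were measured for the isoform pairs COX7A1 with COX7A2 and NDUFA4 with NDUFA4L2, and none of these genes separated the breeds either. NDUFA4L2 differed by -0.08 (standard error 0.18). COX7A1, the muscle-type isoform, differed by -0.15 (standard error 0.10) and COX7A2, the widely expressed isoform, by -0.01 (standard error 0.16).

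Without the replicate block, the probe sets that came closest to a call belonged to ATP synthase, but were not the brightest of their genes, ATP5L and ATP5C1. Among the brightest probe sets NDUFAF4 came closest (limma adjusted p = 0.481). ATP5O, a subunit of the stalk, differed by 0.30 (standard error 0.16, adjusted p = 0.684), with arrays of 3.18 to 3.71 in DL and 3.61 to 4.08 in AS that overlapped. A second probe set of ATP5L, subunit g, was higher on all 4 AS arrays (4.63 to 4.95) than on the 4 DL arrays (4.19 to 4.51), a difference of 0.42 (SNOWBALL_046896_st, standard error 0.13, adjusted p = 0.344), while its brightest probe set differed by -0.12. The probe sets of the same gene thus did not move together.

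ATP5B, the catalytic beta subunit, stood at 11.35 and 10.98 in DL-FP, 11.01 and 10.71 in DL-FS, 11.41 and 11.04 in AS-FP and 11.35 and 11.11 in AS-FS. Its breed difference was 0.22 (standard error 0.13, adjusted p = 0.724), 0.20 on the arrays numbered 1 and 0.23 on those numbered 2. With the replicate number as a block the standard error was 0.05 and ATP5B was called (adjusted p = 0.0902), one of 2 member probe sets called in that fit, in which 3.04% of all probe sets were called. The AS arrays lay above the DL arrays of the same number and tissue, by little in FP and by more in FS, where the difference was 0.37 (standard error 0.19, adjusted p = 0.777). There the blocked fit again called ATP5B (adjusted p = 0.0831, with 1.07% of all probe sets called).

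**Figure D2:**
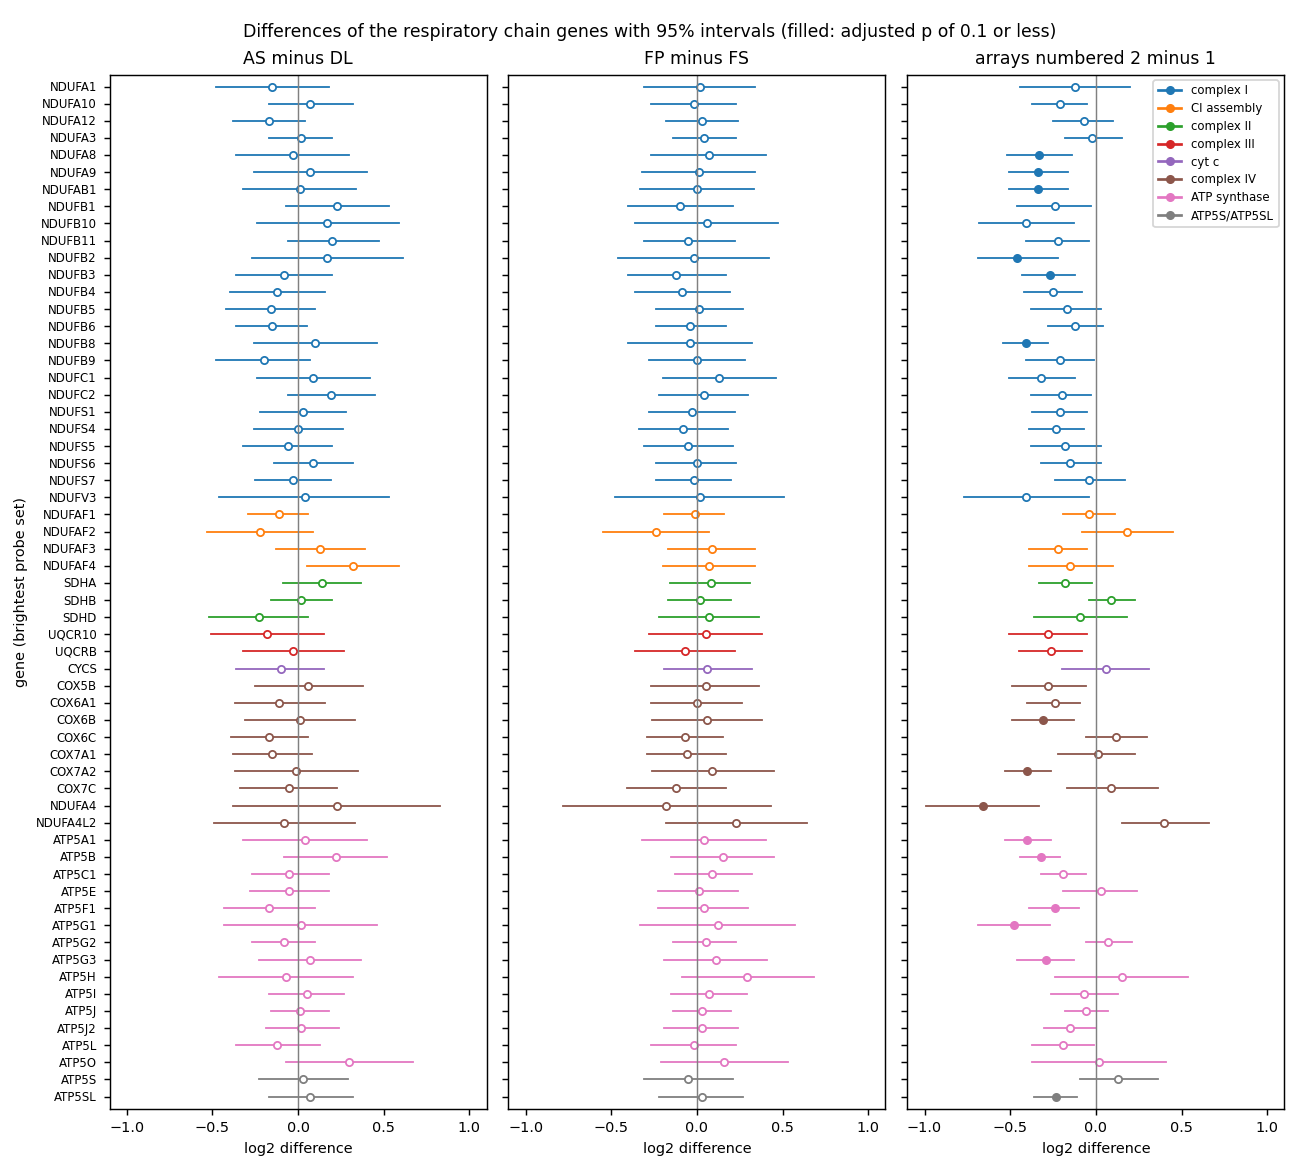
Log2 difference with its 95% interval (x axis) for each of the 60 genes (y axis), for AS minus DL, FP minus FS and arrays numbered 2 minus 1, with filled points for an adjusted p of 0.1 or less. The first 2 panels hold no filled point, and the third holds 15, all to the left of 0.

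The second comparison asked whether cells from the fat pad and from the fibrous synovium differ in the chain. None of the 95 probe sets was called between FP and FS by limma (0, against 0.264% of all probe sets), and 1 was under an unadjusted p of 0.05. A plain linear model called 0, again without its share over all probe sets beside it. The median difference over the 60 genes was 0.02 (FP minus FS), the range over the 59 genes above background was -0.24 to 0.23, and for 0 of 60 genes did the tissues separate, against 3.14% of all named genes. The 95% interval lay within 0.5 of 0 for 53 of 59 genes above background, with outermost bounds of -0.78 and 0.64.

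The largest tissue differences of each complex were as small. In complex I it was NDUFC1, an accessory subunit, with 0.13 (standard error 0.14), and among the assembly factors NDUFAF2, which acts late in complex I assembly, with -0.24 (standard error 0.14). The latter stood at 5.38 to 5.95 in FP and 5.63 to 6.04 in FS, so that the tissues overlapped. SDHA differed by 0.08, UQCRB of complex III by -0.07 and CYCS by 0.06. In complex IV the largest was NDUFA4L2, a paralogue of NDUFA4 known to be induced by hypoxia, with 0.23 (standard error 0.18). In ATP synthase the largest value, 0.29, was that of ATP5H, below background. Of the 13 other genes 12 had a difference above 0, with a median of 0.05, but 0 of them were called and 0 were under an unadjusted p of 0.05 in limma. Adjusted p-values of all genes named here were 1.

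A few markers of other cells were called between the tissues in the same arrays, where 0.264% of all probe sets were called. Of the 9 adipocyte markers measured of 10 listed, all of them above background, 2 were called higher in FP, the fat cell regulator PPARG by 1.13 (standard error 0.16, adjusted p = 0.051) and lipoprotein lipase LPL by 1.59 (standard error 0.26, adjusted p = 0.0882). The summed linear signal of the 9 was 402 to 581 on the FP arrays and 343 to 421 on the FS arrays. The list did not rise as a whole in both breeds. Its median deviation from the mean over the 8 arrays was 0.26 and 0.21 in AS-FP. It was -0.01 and -0.15 in DL-FP, and -0.19 to -0.13 on the FS arrays. Of the 8 pericyte and smooth muscle markers measured, 7 of them above background, KCNJ8, a potassium channel subunit of pericytes, was called higher in FP by 1.17 (adjusted p = 0.0759), RGS5 was below background at 1.99, and the summed signal was 5460 to 7610 in FP and 4060 to 7610 in FS. Most of that sum was smooth muscle actin ACTA2, and without it the sum was 480 to 582 in FP and 291 to 350 in FS, without overlap. Their part in the small differences of the chain was not tested. In such bulk samples, fewer cells of a type and less RNA per cell cannot be told apart.

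One probe set of ATP5C1, the gamma subunit that turns inside the catalytic head, behaved unlike the rest of the chain. SNOWBALL_025667_s_st stood at 5.68 and 4.93 in DL-FP, 3.80 and 2.43 in DL-FS, 3.33 and 3.34 in AS-FP and 3.56 and 1.76 in AS-FS. DL-FP was high on both arrays, and DL-FS 2 and AS-FS 2 were below their background medians. The tissue difference was 1.43 (standard error 0.43, adjusted p = 0.588) and the breed difference -1.21 (standard error 0.43, adjusted p = 0.452). With the replicate number as a block both passed the test, at adjusted p-values of 0.0833 for tissue, where 0.987% of all probe sets were called, and 0.084 for breed.

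The other ATP5C1 probe sets did not follow it. The brightest, SNOWBALL_021450_s_st, stood at 9.21 and 8.93 in DL-FP, 8.94 and 8.76 in DL-FS, 8.98 and 8.82 in AS-FP and 9.01 and 8.86 in AS-FS, with a tissue difference of 0.09 and a breed difference of -0.05. For SNOWBALL_025639_s_st and SNOWBALL_037827_st the tissue differences were 0.14 and 0.09 and the breed differences 0.09 and 0.02. None of these 3 was called with or without the block. The s in the names of the dim probe set, of the brightest one and of SNOWBALL_025639_s_st marks probes that can also bind near-identical transcripts, so that all 3 are uncertain as measures of ATP5C1. Such a suffix occurs on 22 of the 95 probe sets and on 11 of the 60 brightest ones.

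**Figure D3:**
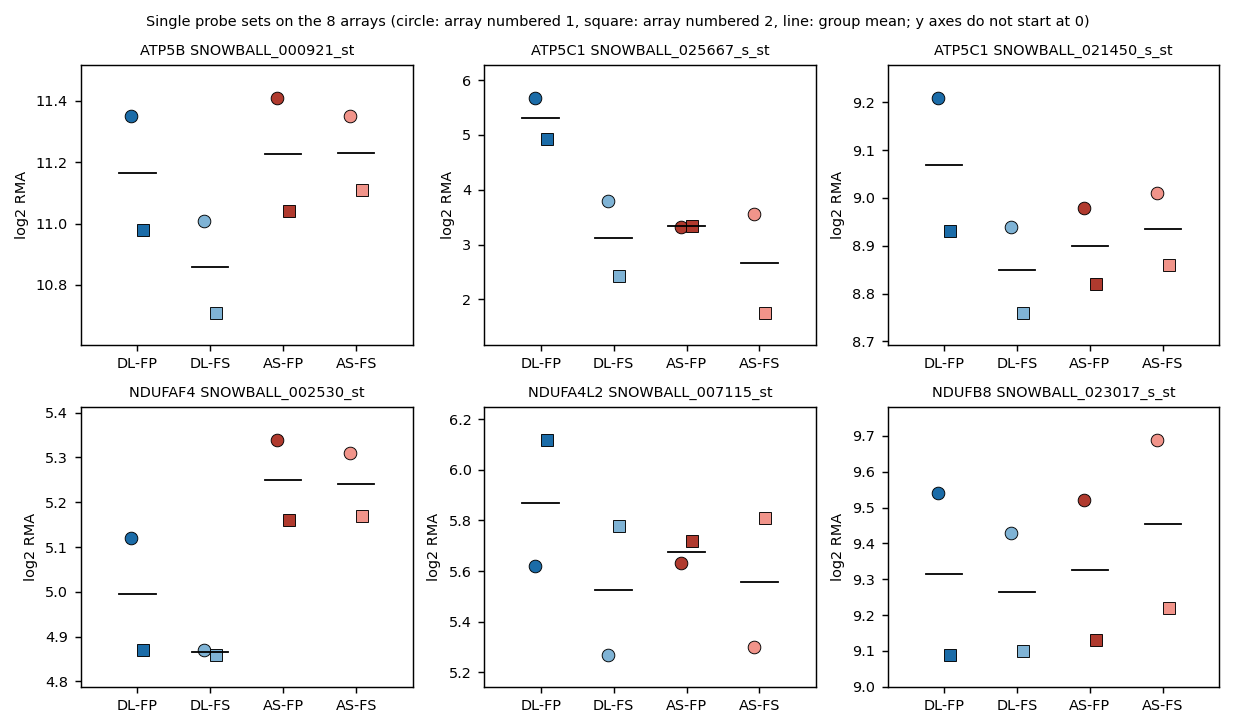
Log2 RMA (y axis, not starting at 0) of 6 probe sets on the 8 arrays by group, with circles for arrays numbered 1, squares for arrays numbered 2 and a line at the group mean. The dim ATP5C1 probe set is high in DL-FP only, while the brightest one spans 8.76 to 9.21, and in the NDUFB8 panel every square lies below every circle.

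Within single groups the chain did not separate either, and all these comparisons share arrays with those above. FP minus FS was above 0 for 51 of 60 genes in DL, with a median of 0.10, and for 17 of 60 genes in AS, with a median of -0.05. The number of probe sets called was 0 in both, against 0.044% and 0.0545% of all probe sets, with 1 under an unadjusted p of 0.05 in each. AS minus DL had a median of -0.06 in FP and 0.05 in FS, again with 0 calls, against 0.212% and 0.0943%, and with 3 and 2 under an unadjusted p of 0.05. All 4 medians changed sign when single arrays were left out. They then ran from -0.02 to 0.24 for the tissues in DL, from -0.16 to 0.04 for the tissues in AS, from -0.20 to 0.05 for the breeds in FP and from -0.02 to 0.16 for the breeds in FS. Counts of signs over all named genes are not given here, so those of the members do not set the chain apart.

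The difference of the tissue effect between the breeds (AS minus DL) was below 0 for 50 of 60 genes, with a median of -0.16, and ranged from -0.38 to 0.21 over the 59 genes above background. None was called (0, against 0.0% of all probe sets), and 2 probe sets were under an unadjusted p of 0.05. The median was between -0.32 and -0.05 when single arrays were left out. Here too no count of signs over all named genes stands beside that of the members. ATP5G2, one of the genes for the membrane ring subunit c, had the largest difference among genes, -0.38 (standard error 0.16, adjusted p = 1), with 10.81 and 10.80 in DL-FP, 10.45 and 10.68 in DL-FS, 10.48 and 10.57 in AS-FP and 10.69 and 10.66 in AS-FS. It was named after its values were seen. The DL-FP arrays were the highest of the 8.

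The third comparison set the 4 arrays numbered 2 against the 4 numbered 1, with the group means in the model. The labels do not say what the number stands for. Many respiratory chain genes were lower on the arrays numbered 2. Of the 95 probe sets 16 were called lower and 0 higher, whereas 5.52% of all probe sets were called, 3.57% lower. Of the 60 genes 15 were called, 25% against 7.84% of all named genes, and 48 of 60 differences were below 0, with a median of -0.21 against -0.03 over all named genes. The calls rest on limma's variance trend. Without the trend, and with a plain linear model, 0 probe sets were called among the members and 0 among all probe sets, with 30 and 34 of the 95 under an unadjusted p of 0.05, against 42 with the trend.

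The count also depended on single arrays. In this comparison an array left without its partner in the group adds nothing, so leaving out either array of a group acts alike. Without DL-FP 1 or DL-FP 2 there was 1 call, without AS-FP 1 or AS-FP 2 there were 3, without AS-FS 1 or AS-FS 2 there were 6 and without DL-FS 1 or DL-FS 2 there were 11. NDUFB8 was called without each of the 8 arrays in turn. The median over the genes stayed between -0.22 and -0.16. Shares of all probe sets called without these arrays are not given here.

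All 25 complex I genes were lower on the arrays numbered 2, and 6 of them were called. NDUFB8, an accessory subunit of the membrane arm, stood at 9.54 and 9.09 in DL-FP, 9.43 and 9.10 in DL-FS, 9.52 and 9.13 in AS-FP and 9.69 and 9.22 in AS-FS. The arrays numbered 1 lay at 9.54 ± 0.11 and those numbered 2 at 9.13 ± 0.06 (SD, n = 4), without overlap, a difference of -0.41 (standard error 0.06, adjusted p = 0.0179). The 5 others called were NDUFB2 (-0.46), NDUFA9 (-0.34), which lies near the ubiquinone site, NDUFAB1 (-0.34), the mitochondrial acyl carrier protein, NDUFA8 (-0.33) and NDUFB3 (-0.27), at adjusted p-values of 0.0619 to 0.0843. NDUFV3, a small subunit of the NADH-binding part, ran from 7.93 in DL-FS 2 to 8.97 in DL-FS 1 and was not called (-0.41, standard error 0.16, adjusted p = 0.244).

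Complex II gave a mixed picture. The brightest SDHA probe set differed by -0.18 and was not called (adjusted p = 0.223), while SNOWBALL_021153_s_st of the same gene was called (-0.30, standard error 0.06, adjusted p = 0.0413). Its arrays stood at 8.88, 8.75, 8.78 and 8.91 for number 1 and at 8.58, 8.41, 8.53 and 8.60 for number 2, with DL before AS and, within a breed, FP before FS. All 4 SDHA probe sets were lower on the arrays numbered 2. The brightest SDHB probe set differed by 0.09, its other probe sets by -0.18 to -0.11, and SDHD by -0.09. In complex III, UQCR10 differed by -0.28 and UQCRB by -0.26 without passing the test (adjusted p of 0.195 and 0.136), and CYCS by 0.06.

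Complex IV held both directions. COX7A2 was called lower, with 8.85, 8.65, 8.73 and 8.71 on the arrays numbered 1 and 8.40, 8.26, 8.34 and 8.33 on those numbered 2 (-0.40, standard error 0.06, adjusted p = 0.0208). The arrays did not overlap, and the gap was alike in the 4 groups. Its isoform COX7A1 differed by 0.01. COX6B, a subunit on the side of the intermembrane space, was called at -0.31 (adjusted p = 0.0838), and COX6A1 was not at -0.24 (adjusted p = 0.107).

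NDUFA4 and NDUFA4L2 moved in opposite directions. NDUFA4 was called at -0.66 (standard error 0.14, adjusted p = 0.058), but its mean of 2.50 on the arrays numbered 2 did not exceed background. With those arrays taken at no less than their background medians, the arrays numbered 1 were higher by at least 0.44. Its second probe set was below background. NDUFA4L2 stood at 5.62, 5.27, 5.63 and 5.30 on the arrays numbered 1 and at 6.12, 5.78, 5.72 and 5.81 on those numbered 2, 0.40 higher on average (standard error 0.11), short of a call (adjusted p = 0.109). It was the single gene of the 60 that was higher on the array numbered 2 in all 4 groups.

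In ATP synthase 5 of 14 genes were called, all lower on the arrays numbered 2. They were ATP5A1, the alpha subunit (-0.40, standard error 0.06, adjusted p = 0.0226), ATP5B (-0.32, standard error 0.05, adjusted p = 0.0241), ATP5G1 (-0.48) and ATP5G3 (-0.29), which both encode subunit c, and ATP5F1, subunit b of the stalk (-0.24). ATP5A1 stood at 10.93, 10.59, 10.78 and 10.91 on the arrays numbered 1 and at 10.44, 10.36, 10.33 and 10.49 on those numbered 2, without overlap. The third gene for subunit c, ATP5G2, differed by 0.07, and ATP5E, ATP5O and ATP5J by 0.03, 0.02 and -0.06. ATP5SL, now known as a factor in complex I assembly, was called at -0.23 (adjusted p = 0.0702), and ATP5S differed by 0.13.

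**Figure D4:**
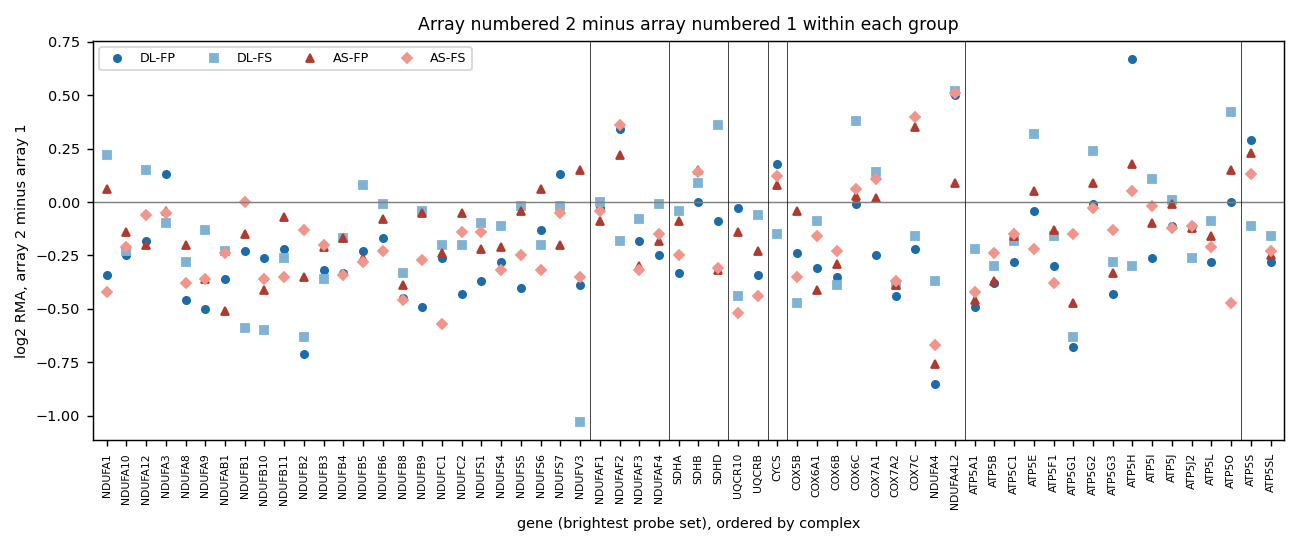
Log2 RMA of the array numbered 2 minus that of the array numbered 1 (y axis) in each of the 4 groups (symbols) for the 60 genes (x axis), ordered by complex and separated by vertical lines. For 37 of the 60 genes all 4 symbols lie below 0, and NDUFA4L2 is the single gene with all 4 above 0.

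The shift was present in every group. Within a group the median of number 2 minus number 1 was -0.26 in DL-FP, -0.15 in DL-FS, -0.14 in AS-FP and -0.23 in AS-FS. All 4 groups had a lower value on the array numbered 2 for 37 of 60 genes, or 61.7% against 19.0% of all named genes. The arrays numbered 2 lay entirely below those numbered 1 for 20 of 60 genes, or 33.3% against 6.94% of all named genes, and entirely above for 1, together 35.0% against 10.2%. By complex the median difference was -0.22 for complex I, -0.27 for complex III, -0.24 for complex IV, -0.17 for ATP synthase and -0.09 for complex II. Among genes with several probe sets, 30 further probe sets lay above background, of which 19 were lower on the arrays numbered 2, with a median of -0.12, and 1 was called.

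**Figure D5:**
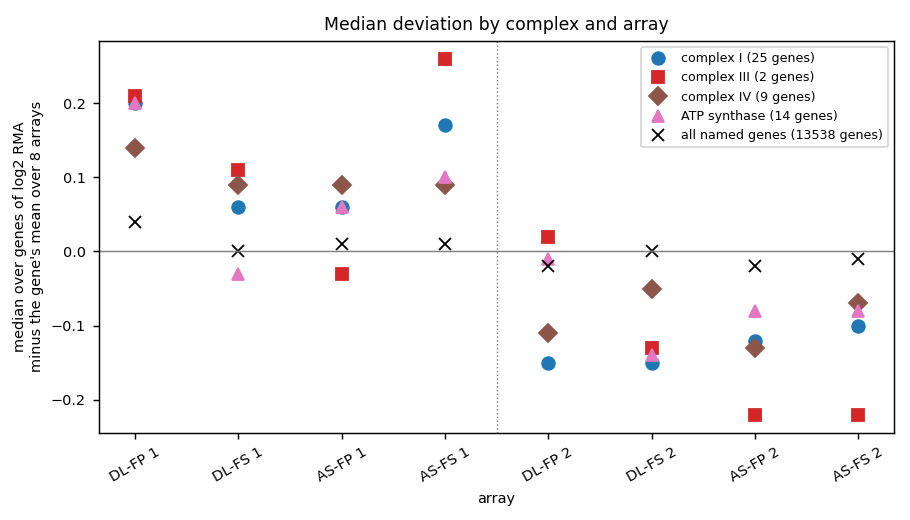
Median over the genes of a complex of log2 RMA minus the gene's mean over the 8 arrays (y axis) on each array (x axis), for 4 complexes and for all named genes. Over all named genes the medians stay between -0.02 and 0.04, while those of complex I are 0.06 to 0.20 on the arrays numbered 1 and -0.15 to -0.10 on those numbered 2.

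Brighter genes in general tended to be lower on the arrays numbered 2, and the chain is bright. Among all named genes with a mean of 6 to 8 the median was -0.04 and 9.78% were called, and at 8 to 10 it was -0.07 with 17.8% called. Respiratory chain genes at these levels had medians of -0.21 and -0.21, with 18.5% and 35.0% called. The 12 spiked poly-A control probe sets, which are added to the RNA before labelling, were also lower on the arrays numbered 2, with means of 8.13 and 7.86 and differences of -0.10 in DL-FP, -0.40 in DL-FS, -0.29 in AS-FP and -0.26 in AS-FS. The 9 hybridisation controls stood at 9.37 on DL-FP 1 and at 10.26 to 10.58 on the other arrays. The part of brightness and of these controls in the shift of the chain was not tested.

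Some genes of neighbouring mitochondrial functions were lower on the arrays numbered 2 as well, read here against the 7.84% of all named genes called and their median of -0.03. Of 15 genes of pyruvate dehydrogenase and the citric acid cycle 4 were called lower and 0 higher, with a median of -0.19, led by malate dehydrogenase MDH2 (-0.42, adjusted p = 0.0149), SUCLA2 of succinyl-CoA ligase (-0.37, adjusted p = 0.0305) and fumarase FH (-0.30, adjusted p = 0.0344). Of 60 mitochondrial ribosomal protein genes 9 were called lower, or 15%, with a median of -0.18. That share lies between those of all named genes with a mean of 6 to 8 and of 8 to 10. Of 16 genes of import, carriers and chaperones 4 were called lower, with a median of -0.16, among them the import receptor TOMM20 (-0.44, adjusted p = 0.0278) and the ADP/ATP carrier SLC25A4 (-0.48, adjusted p = 0.0528). Of 15 genes of other electron entry, uncoupling and antioxidant defence the peroxidase PRDX3 was called lower (-0.35, adjusted p = 0.0391), or 6.67%, near the share of all named genes, although the median was -0.18.

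The 4 other lists had medians of -0.04 to -0.03. Of 11 further assembly factors 2 were called lower, COX17, a copper carrier for complex IV (-0.40, adjusted p = 0.0716), and BCS1L, which serves complex III (-0.36, adjusted p = 0.0741), with a median of -0.04. Of 14 regulators of mitochondrial biogenesis GABPB1 was called (-0.39, adjusted p = 0.0384), or 7.14%, near the share of all named genes, whereas TFAM and NRF1 each differed by -0.05, with a median of -0.03. Of 16 glycolysis genes 3 were called lower, led by enolase ENO1 (-0.30, adjusted p = 0.0255), with a median of -0.03. Of 16 genes of the hypoxia response, HIGD1A was called lower (-0.37, adjusted p = 0.0549) and EPAS1 (0.29, adjusted p = 0.073) and KDM3A (0.30, adjusted p = 0.0916) higher. Between breeds and between tissues 0 of the 163 genes of these 8 lists were called by limma, against 0.666% and 0.264% of all probe sets. There were 19 and 9 of the 163 under an unadjusted p of 0.05. The share of all named genes under that p is not given here, so these counts do not set the lists apart.

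A few markers of other cells also differed with the replicate number, to be read against the share of all named genes called, given above. A single call in a list of 9 is not far from that share. Of 9 skeletal muscle markers, all above background, actin ACTA1 was called lower (-0.69, adjusted p = 0.0361), and the summed linear signal of the 9 was 350 to 415 on the arrays numbered 1 and 286 to 330 on those numbered 2. The summed signal of the pericyte and smooth muscle markers was 6450 to 7610 and 4060 to 5670, with ACTA2 called lower (-0.54, adjusted p = 0.0119) and ABCC9 higher (0.83, adjusted p = 0.0186). Neither sum overlapped between the numbers, but most of the second was ACTA2, and without it the sums overlapped, with 291 to 531 on the arrays numbered 1 and 347 to 582 on those numbered 2. Of the 9 markers of mesenchymal stem cells CD44 was called lower (-0.37, adjusted p = 0.0251). With the replicate number, none of the 9 adipocyte, 6 leukocyte and 7 endothelial markers was called (0 in each list by limma, with 2, 0 and 1 under an unadjusted p of 0.05). Between breeds the collagen-binding proteoglycan LUM, listed for mesenchymal stem cells, was called lower in AS (-1.01, adjusted p = 0.0119), and 0 of the other markers were called. The part of these markers in the shift of the chain was not tested.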

How the data were processed

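The authors deposited log2 values, summarised by robust multichip averaging with Expression Console after scanning (GCOS, 1.1.1 in the submitters' processing notes). No detection calls entered the analysis. Arrays have no read depth, so their number and the distance from background set how precise a value is.

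Of the deposited probe sets, 123 controls were dropped, which left 47722 for limma (version 3.58.1, R version 4.3.3). Each of 4 groups had its own mean, and the variance followed a trend on the level (residual degrees of freedom 4, prior 4.33). P-values were adjusted after Benjamini-Hochberg over all probe sets of a comparison. Following the false discovery rate in the methods, a call needed an adjusted p of at most 0.1. The replicate number was added as a block (residual degrees of freedom 3), and its coefficient compared arrays numbered 2 with those numbered 1. Same-numbered arrays deviated together in 6 of 6 pairs of groups (r of 0.143 to 0.219, each above 0.1), which was the reason to use the block. These correlations are weak and come from the same data. The labels do not say that same-numbered arrays are paired, so the calls of the blocked fit rest on an assumption. The blocked value stands beside results whose call it changes.

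Symbols came from the platform annotation (26014 probe sets named, 21708 not, 258 symbols updated). The 412 microRNA probe sets stayed unnamed. Members and lists were chosen with earlier results of these data known. Named are members called in any fit, the largest breed and tissue difference of each complex, isoform pairs, SDH and carrier genes, the 5 smallest and 5 largest SDs, and at most 3 genes of a list by adjusted p. Other genes named beside them were chosen after their values were seen. The fit was tested on simulated data. Alternatives were no variance trend, centred arrays, filters on SD and background, array weights, a plain linear model, the mean of a gene's probe sets, and leaving out each array. Tables and plots were made in Python 3.11.15 with numpy 2.4.6, pandas 2.3.3, matplotlib 3.10.9 and scipy 1.17.1.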

Additional observations from a re-analysis of the deposited data

Results flagged for a closer look

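Of 152 sets of 4 arrays (38 named probe sets in each breed and each tissue), 7 held an array whose gap to the other 3 exceeded Dixon's critical share of the range. Chance gives such a gap in about 1 of 20 sets. ATP5C1 SNOWBALL_025667_s_st was at 1.76 on AS-FS 2, below background, and at 3.33 to 3.56 on the other AS arrays. NDUFB1 was at 8.69 on DL-FS 2 and at 9.28 to 9.39 on the other FS arrays, the widest gap among the brightest probe sets. DL-FP 1 was the high array for NDUFAF4 (5.12, other DL arrays 4.86 to 4.87), COX7A1 (6.40, other FP arrays 6.15 to 6.19) and ATP5J (9.93, other FP arrays 9.81 to 9.83). ATP5J was also high on AS-FS 1 (9.92, other FS arrays 9.78 to 9.80), and SDHB was low on DL-FS 1 (9.03, other DL arrays 9.11 to 9.12).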

How the results depend on the processing

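The number of respiratory chain probe sets called between breeds (0) and between tissues (0) held under 8 array omissions and most settings. The replicate block gave 2 calls for breed (ATP5B and the dim ATP5C1 probe set), 1 for tissue (the latter) and 1 for breed within FS (ATP5B), and changed no other call. Restricting the test to probe sets with an SD above 0.25, of which 13 were members, gave 1 call for tissue, the same ATP5C1 probe set. For arrays numbered 2 against 1, the 16 calls became 0 without the variance trend, 0 with a plain linear model, 3 with the SD filter, 10 of 60 with the mean of a gene's probe sets and 1 to 11 when single arrays were left out. They were 18 with centred arrays, 18 with array weights and 21 among probe sets above background. The number of probe sets tested also changed, to 15281 with the SD filter and 36215 above background. For most of these fits the share of all probe sets called is not given here, so the changes cannot be called particular to the chain. The median over the genes, -0.21, was -0.41 over the 7 genes past the SD filter, since that filter keeps the most variable genes. The median difference of the tissue effect between breeds, -0.16, was -0.32 to -0.05 without single arrays. The causes of the other changes were not tested. No called result reversed. The uncalled medians near 0 changed sign when single arrays were left out, from -0.06 to 0.05 for breed and from -0.04 to 0.07 for tissue, as did those within a breed or tissue. Signal near background limits NDUFA4, ATP5H and the dim ATP5C1 probe set.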
